A study of Homo sapiens with 2 samples.

Results

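The genes described are PGR, NR3C1 and NR3C2, which encode the progesterone receptor, the glucocorticoid receptor and the mineralocorticoid receptor. They were matched by symbol to gene identifiers in the count table, and all 3 were found among its 57820 genes. The androgen receptor gene was not analysed here. Total RNA came from T47D cells, an established human line of luminal, estrogen receptor-positive breast carcinoma. The cells carried the Y537S exchange in ESR1, which keeps estrogen receptor alpha active without hormone. They were plated in hormone-deprived medium, kept free of antibiotics and transfected with 25 nM of a non-targeting control siRNA. Both libraries belong to 1 group, as replicates 1 and 2, and conditions could not be compared. They do not say whether the mutant cells were 1 clone or whether the replicates were separate cultures, and the spread between the replicates may be technical.

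These receptors form the oxosteroid branch of the nuclear receptor family. Each is a ligand-activated transcription factor that waits in the unliganded state in a complex with HSP90 chaperones, and each binds nearly the same palindromic DNA element through a highly similar DNA-binding domain. PGR is a classical target gene of estrogen receptor alpha and is used in breast pathology as a sign that this receptor is active. NR3C1 mediates the response to cortisol in most tissues. NR3C2 binds aldosterone and cortisol, and mediates sodium retention in the kidney.

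PGR has a described estrogen-responsive site, in which a GGTCA motif (a single arm of the palindromic estrogen response element) stands beside GC boxes that bind SP1. The site is shown because PGR is the member whose level set it apart from the others. It was thus chosen by that level, and a link between the site and the level was not tested. The 30 bases below lie on the minus strand at chr11:101129218-101129247 of GRCh38.p14, from the RefSeq promoter table, 5′ to 3′. They start 566 bases downstream of the most upstream of the 3 listed PGR starts and 170 bases upstream of the first listed one. Capitals mark the GGTCA motif, which reads TGACC on this strand, and the GC boxes (GGGCGG, here CCGCCC).
PGR: gagcTGACCagcgCCGCCCtcccCCGCCCc

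For NR3C1 and NR3C2, the 250 bases upstream of a listed start are also shown, chosen by another rule. Each is the first window listed with most GC boxes among those without exon bases in GENCODE release 29, chosen after the motifs were searched. No PGR window was free of exon bases, so the PGR site was not held to this rule. The rule left out the NR3C2 window that held GGTCA, at -209 and -118 from its start, together with GC boxes. The sequences therefore do not show that NR3C2 lacks such a pairing. Both genes lie on the minus strand, at chr5:143405356-143405605 and chr4:148444708-148444957 of GRCh38.p14, and capitals mark GC boxes.
NR3C1: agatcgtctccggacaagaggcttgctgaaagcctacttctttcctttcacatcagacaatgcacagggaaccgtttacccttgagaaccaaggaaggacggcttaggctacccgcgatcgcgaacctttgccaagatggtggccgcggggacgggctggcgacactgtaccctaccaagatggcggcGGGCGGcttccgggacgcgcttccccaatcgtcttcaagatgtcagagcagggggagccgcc
NR3C2: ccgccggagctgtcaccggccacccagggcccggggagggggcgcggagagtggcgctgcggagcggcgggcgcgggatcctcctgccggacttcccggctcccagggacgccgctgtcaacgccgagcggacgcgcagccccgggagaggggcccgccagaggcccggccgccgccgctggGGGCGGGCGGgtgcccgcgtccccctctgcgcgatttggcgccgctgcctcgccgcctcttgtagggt

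The motifs were searched on both strands in the 250 bases upstream of every listed start, which gave 35116 windows. GGTCA was found in 2 of the 3 PGR windows, which overlap and share the site above. It was in none of the 7 NR3C1 windows and in 1 of the 4 NR3C2 windows, against 32.6% of all windows. GGGCGG was in 3 of 3 PGR, 5 of 7 NR3C1 and 4 of 4 NR3C2 windows, against 42.6% of all windows. The full estrogen response element, GGTCA and TGACC set 3 bases apart, found in 0.0399% of all windows, was in none of these 14. Neither TGTTCT (12.4% of all windows), an arm of the element that the 3 receptors themselves bind, nor the full element, AGAACA and TGTTCT set 3 bases apart (0.00285%), was found in them. The GC content of the windows was 43.6% to 64.4% for PGR, 32.8% to 82.0% for NR3C1 and 63.6% to 81.6% for NR3C2, with a median of 58% over all windows. A gene's count sums transcripts from all of its starts, so the receptor isoforms A and B of PGR, which arise from separate starts, were not told apart.

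PGR was the most abundant of the 3 transcripts by more than an order of magnitude, NR3C1 was modest and NR3C2 was low. TPM gives levels per exon length, with reads divided by a gene's summed exon bases and then scaled to the library, and CPM gives reads scaled to the library alone. The libraries held 41370662 reads on genes in replicate 1 and 37198274 in replicate 2. Nuclear protein-coding genes held 29.83% of the summed TPM in replicate 1 and 26.43% in replicate 2, and the rest of this total RNA lay on other genes, which lowers every TPM value in proportion. All 3 members had 1 CPM or more in both libraries, the level used for calling a gene detected, which 60.9% of 19263 protein-coding genes reached.

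PGR (ENSG00000082175.10, hg19 chromosome 11, 100900355 to 101001255, minus strand) held 87530 reads in replicate 1 and 77012 in replicate 2, which was 0.212% and 0.207% of all reads on genes. Its level was 216 TPM in replicate 1 (214 to 217, the 95% counting interval, as in brackets after other levels) and 189.8 TPM in replicate 2 (188 to 191). In CPM the libraries were nearly level, at 2116 and 2070.3. The mean of 203 ± 18.4 TPM (SD, n = 2) placed PGR at rank 167 of the protein-coding genes, above 99.13% of them. By CPM it ranked 10th. Its exons sum to 15305 bases, more than in 98.67% of protein-coding genes, whose median is 4071.

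NR3C1 (ENSG00000113580.10, hg19 chromosome 5, 142657496 to 142815077, minus strand) held 1261 and 939 reads in replicates 1 and 2. Its level was 5.19 TPM in replicate 1 (4.91 to 5.48) and 3.86 TPM in replicate 2 (3.62 to 4.12), a mean of 4.52 ± 0.938 TPM. As for PGR, the counting intervals of the 2 libraries did not overlap in TPM. It ranked 8215 among protein-coding genes, above 57.35% of them.

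NR3C2 (ENSG00000151623.10, hg19 chromosome 4, 148999913 to 149365850, minus strand) held 304 and 255 reads in replicates 1 and 2. Its level was 1.74 TPM in replicate 1 (1.55 to 1.94) and 1.46 TPM in replicate 2 (1.28 to 1.65), a mean of 1.60 ± 0.198 TPM. Here the intervals overlapped. It ranked 10225, above 46.92% of protein-coding genes.

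**Figure D1:**
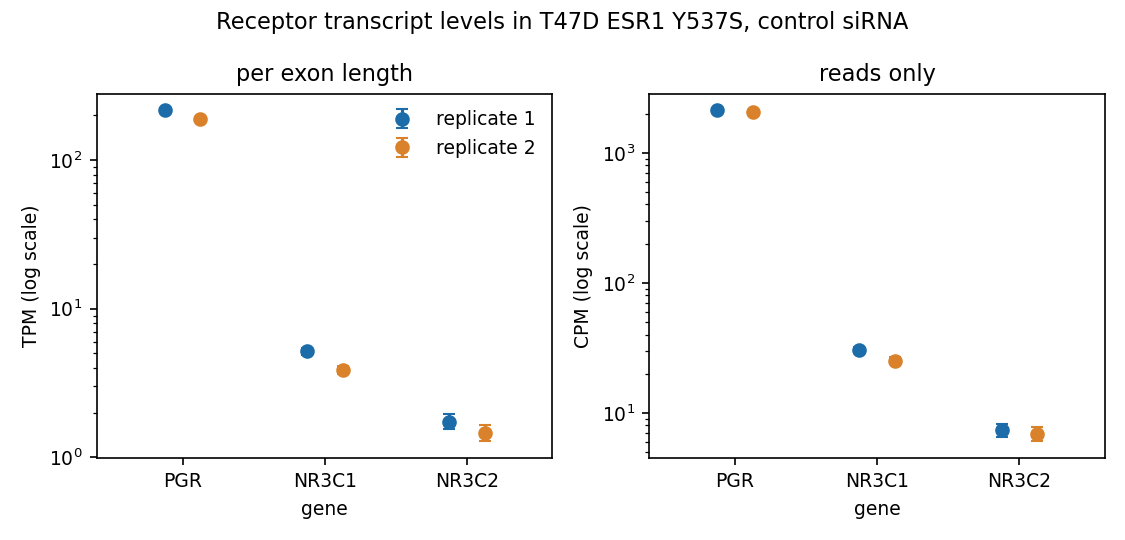
Levels of PGR, NR3C1 and NR3C2 in each replicate library of T47D cells with ESR1 Y537S and control siRNA, as TPM on the left and CPM on the right, both on log axes. Points are libraries and bars are exact 95% counting intervals; PGR stands near 203 TPM, NR3C1 near 4.52 and NR3C2 near 1.60.

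The order of the members was larger than the replicate spread. For this call, each library's counting interval had to leave out a ratio of 1 on the same side, and the mean log2 ratio had to pass the replicate spread, the size of difference that 95% of genes within 2-fold of the lower gene's CPM stayed under between replicates. PGR exceeded NR3C1 41.6-fold per exon length in replicate 1 (95% counting interval 39.3 to 44.0) and 49.2-fold in replicate 2 (46.1 to 52.5). The mean log2 ratio of TPM was 5.50 ± 0.17 (SD, n = 2), against a replicate spread of 0.36. PGR exceeded NR3C2 124-fold (111 to 140) and 130-fold (115 to 148), a mean log2 ratio of 6.99 ± 0.05 against a spread of 0.57. NR3C1 exceeded NR3C2 2.99-fold (2.63 to 3.40) and 2.65-fold (2.31 to 3.06), a mean log2 ratio of 1.49 ± 0.12. In CPM the mean ratios were 75.5, 295 and 3.91, wider than in TPM, since the most abundant member also has the longest exons. The spread compares a gene with itself between libraries and holds no error between genes, such as that of exon length.

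The members differed in how closely the libraries matched. In CPM, PGR in replicate 1 was 1.02 times its level in replicate 2 (1.01 to 1.03), and with TMM scaling the log2 ratio was 0.011 with an interval that included equality. This difference was smaller than that of most of the 51 genes at a like level, standing at their percentile 27.5. NR3C1 was 1.21 times as high in replicate 1 (1.11 to 1.32), at percentile 87.3 of 4770 genes at a like level. For NR3C2 the ratio was 1.07 (0.905 to 1.27), at percentile 28.6 of 2953 genes. Of 14668 genes with a mean of 1 CPM or more and reads in both libraries, 27.7% were higher in replicate 1 and 19.6% were lower there by the same interval. Intervals cover counting error only, and would be too narrow if mates of a pair were counted separately.

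No exon base of the 3 genes was shared with another row of the table. Their counts are therefore not reduced by reads on overlapping exons of 2 annotated genes, nor mixed with exonic reads of an annotated antisense gene. Reads that align to several places in the genome were not examined.

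Within the nuclear receptor family, PGR led the list of 47 genes chosen here, of which 46 were measured and 31 (67.39%) were detected, a share near the 60.9% of protein-coding genes. The median receptor had 1.40 ± 0.307 TPM, below the 2.31 ± 0.165 of all protein-coding genes. PGR held 44.49% of the summed TPM of the measured receptors in replicate 1 and 44.17% in replicate 2. NR3C1 held 1.07% and 0.899%, and NR3C2 held 0.358% and 0.339%. The next receptor, the orphan receptor gene NR2F6, had 37.5 ± 2.90 TPM. The log2 ratio of PGR to NR2F6 was 2.43 ± 0.02 in TPM, larger than the replicate spread of 0.31. ESR1, the gene of the mutated estrogen receptor itself, had 25.7 and 21.2 TPM in replicates 1 and 2, and PGR exceeded it 8.67-fold (log2 ratio 3.12 ± 0.07). PGR ranked first in either library, and by CPM as well.

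NR3C1 ranked 17th of the measured receptors, at 17 in replicate 1 and 18 in replicate 2. Its nearest receptor by mean log2 TPM over the 2 libraries was the orphan receptor gene NR2C2, with 4.51 ± 0.522 TPM and a log2 ratio of NR2C2 to NR3C1 of 0.0052. Neither NR2C2 nor PPARD, next below it, differed from NR3C1 by more than the replicate spread in TPM. In CPM, where length is not divided out, NR3C1 exceeded both by more than that spread. The receptor next above, NR5A2, exceeded NR3C1 by 0.62 ± 0.14 on the log2 scale of TPM, more than the spread of 0.36. NR3C1 stood well below ESR1, with a log2 ratio of TPM of -2.38 ± 0.11.

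NR3C2 ranked 22nd, at 23 in replicate 1 and 21 in replicate 2, between NR2F1 with 1.86 ± 0.629 TPM and NR6A1 with 1.57 ± 0.480. Neither neighbour differed from NR3C2 by more than the replicate spread, in TPM or in CPM. NR6A1 was its nearest receptor, with a log2 ratio of NR6A1 to NR3C2 of -0.05 over the 2 libraries. NR3C2 still exceeded ESR2, the gene of estrogen receptor beta, 5.21-fold in TPM (log2 ratio 2.38 ± 0.04).

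**Figure D2:**
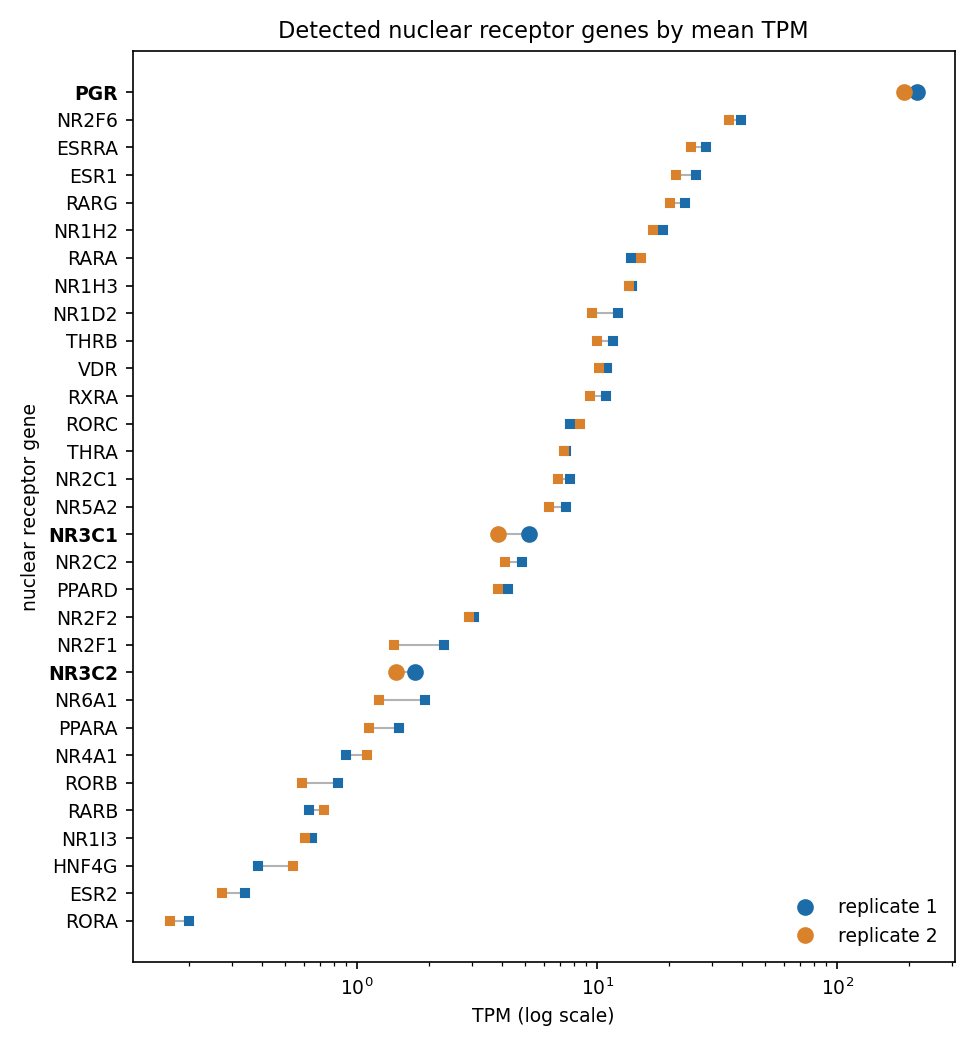
TPM of the 31 detected nuclear receptor genes in each replicate library, on a log axis, ordered by mean TPM from top to bottom. Large circles and bold names mark PGR, NR3C1 and NR3C2, small squares the other receptors, and grey lines join the libraries; PGR stands alone on the right, while NR3C1 and NR3C2 sit in runs of receptors at like levels.

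Of the 15 measured receptors that were not detected, 7 had no read in either library, namely HNF4A, NR0B1, NR0B2, NR2E1, NR5A1, RXRG and RXRB, a dimer partner of many receptors. The others, NR1D1, NR4A2, NR4A3, NR1I2, PPARG, ESRRG, NR1H4 and ESRRB, had between 0 and 42 reads per library. RXRB lies on chromosome 6 (33161365 to 33168630), where none of the 20 nearest protein-coding genes was detected and 11 had no reads, so its count was not read as low expression.

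Chaperones that hold these receptors ready for ligand were present throughout. All 16 listed genes passed the detection level, which 60.9% of protein-coding genes did, and their median was 74.3 ± 12.0 TPM, against 2.31 ± 0.165 over all protein-coding genes. The constitutive chaperone HSPA8 led with 1521 TPM in replicate 1 and 929.7 in replicate 2, followed by HSP90AB1 with 881 and 759 and HSP90AA1 with 434 and 364. The immunophilins FKBP4 and FKBP5 compete for the same place in receptor complexes, FKBP4 favouring and FKBP5 hindering hormone binding. FKBP4 had 206 ± 20.01 TPM and FKBP5 14.4 ± 1.29, a log2 ratio of 3.84 ± 0.01 in TPM and 2.42 ± 0.01 in CPM, both above the replicate spread of 0.30. The co-chaperone PTGES3, known as p23, stood at 130 ± 33.7 TPM.

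Genes known to respond to progestin were of mixed level in these hormone-deprived cells. Of 14 genes 11 were detected (78.57%, against 60.9% of protein-coding genes), and the median was 1.48 ± 0.0597 TPM, below the 2.31 ± 0.165 TPM of all protein-coding genes. The highest were the luminal progenitor factor ELF5 with 40.2 ± 8.75, the fatty acid synthase gene FASN with 32.9 ± 3.57 and the growth factor gene AREG with 29.1 ± 1.58 TPM. WNT4, a paracrine signal downstream of the progesterone receptor in mouse mammary gland, had 1.17 ± 0.200 TPM. TNFSF11, which encodes the paracrine signal RANKL, was without reads, and a count of 0 allows up to 3 reads, which is 0.0725 CPM in replicate 1 and 0.0806 CPM in replicate 2. ZBTB16 had 0 and 12 reads and F3 had 36 and 31 in replicates 1 and 2, and neither was detected.

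Of 18 glucocorticoid response genes 14 were detected (77.78%, against 60.9% of protein-coding genes), and the list's median was 4.48 ± 0.0751 TPM, above the protein-coding median of 2.31. The glutamine synthetase gene GLUL had 60.0 ± 7.48, NFKBIA, an inhibitor of NF-kappaB, 42.2 ± 1.88 and FKBP5 14.4 ± 1.29 TPM. TSC22D3, which encodes the anti-inflammatory leucine zipper protein GILZ, had 6.74 ± 0.853 TPM, and the circadian gene PER1 0.744 ± 0.0988. The liver enzymes PCK1 (2 and 0 reads) and TAT (38 and 66), with MT1X (21 and 46) and ZBTB16, were not detected. TAT and MT1X reached the level of detection in replicate 2 alone.

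Of 10 mineralocorticoid response genes 8 were detected (80%, against 60.9% of protein-coding genes), and the list had a median of 3.33 ± 0.0164 TPM, against 2.31 over protein-coding genes. ATP1B1, a subunit of the sodium pump, had 19.02 ± 3.10 TPM. Of the subunits of the epithelial sodium channel, SCNN1A had 5.32 ± 0.515 and SCNN1B 1.74 ± 0.170 TPM, a log2 ratio of 1.61 ± 0.28, while SCNN1G had 18 and 8 reads and was not detected. The kinase gene SGK1, held by all 3 response lists, had 48 and 39 reads, or 0.164 ± 0.0241 TPM. It lies on chromosome 6, where 14 of the 20 nearest protein-coding genes were not detected and 10 had no reads. The potassium channel gene KCNJ1 had 0 and 8 reads.

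Most genes of progesterone and corticoid metabolism were not detected. Of 17 measured genes 5 were detected (29.41%, against 60.9% of protein-coding genes), and the median was 0.0440 ± 0.000849 TPM, against 2.31 over protein-coding genes. SRD5A1 and SRD5A3, of the steroid reductase family, had 6.02 ± 0.842 and 4.77 ± 0.805 TPM. H6PD, which supplies the cofactor of HSD11B1, had 5.88 ± 0.261 TPM. HSD11B2, which inactivates cortisol and so shields the mineralocorticoid receptor from it, had 131 and 123 reads, or 1.79 ± 0.0805 TPM, although other rows cover 27.7% of its exon bases. HSD11B1, which regenerates cortisol, had no reads. CYP11A1, CYP11B1, CYP11B2, HSD3B1 and HSD3B2 of the adrenal and gonadal route also had none. STAR (12 and 10 reads), CYP17A1 (4 and 4), ABCB1 (0 and 2), AKR1C2 (14 and 7) and AKR1C3 (8 and 6) were below the detection level, and counts of the near-identical AKR1C genes are uncertain. CYP21A2 had none either, but it lies on chromosome 6 (32006042 to 32009447) where 19 of the 20 nearest protein-coding genes were not detected.

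The list of progesterone receptors outside the nuclear receptor family, which also holds relatives of such receptors, was led by NENF and PGRMC1. Of 9 genes 6 were detected (66.67%, near the 60.9% of protein-coding genes), and their list had a median of 8.89 ± 1.60 TPM, against 2.31 over protein-coding genes. The neudesin gene NENF had 69.1 ± 2.10, the membrane component PGRMC1 55.2 ± 7.30 and CYB5D2, of the same heme-binding family, 16.5 ± 0.997 TPM. The log2 ratio of PGR to PGRMC1 in TPM was 1.88 ± 0.06, a 3.68-fold difference; in CPM it was 29.5-fold. Among the membrane progestin receptor genes, PAQR6 had 13.7 ± 0.512 and PAQR7 5.68 ± 0.625 TPM. PAQR5 (28 and 33 reads) and PAQR8 (18 and 12) were not detected, and PAQR9 had no reads.

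**Figure D3:**
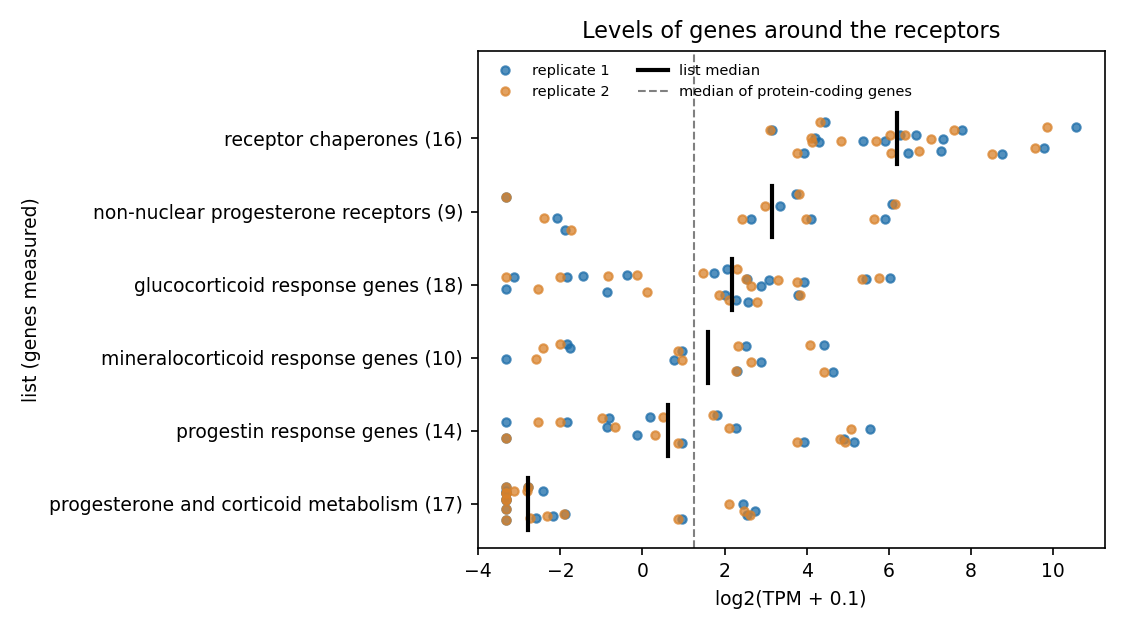
Levels of genes around the receptors as log2(TPM + 0.1), with 1 row per list and the number of measured genes in brackets. Points are genes in each replicate library, spread vertically to part them, black bars are list medians and the dashed line is the median of all protein-coding genes; the chaperones lie to its right throughout, while most synthesis and metabolism genes sit at the left edge, where no or few reads were counted.

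Markers of the labelled cell type were present. All 7 luminal epithelial markers were detected, against 60.9% of protein-coding genes, with summed levels of 2423 and 2274 TPM in replicates 1 and 2. Of the basal markers 1 of 5 (ACTA2) was detected, of the fibroblast markers 1 of 5 (COL1A1) and of the endothelial markers 0 of 2. Their summed levels were at most 2.93 TPM per list and library, and PDGFRB, DCN, CDH5 and the immune marker CD3E were at 0 reads in both libraries. In total RNA of a culture, fewer cells that express a gene and less RNA per cell cannot be told apart.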

How the data were processed

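The deposited values are whole-number counts without normalization, made by the authors with featureCounts 2.0.2 on the exons of each GENCODE release 19 gene, per the file headers. The recorded call set no strand, paired-end, multimapping or overlap option. Per the submitters' processing notes, HISAT2 and hg19 (GRCh37) were used. Another 8 columns of per-sample values match no sample described here and were not used in any step, so levels in those libraries are not given. The 2 columns used were matched to samples on the replicate number, the residue and the line in their names, which do not repeat the siRNA. Per the labels, spike-in RNA was added; it was not used here. The deposited gene lengths are summed exon lengths in bases.

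From the deposited counts, CPM and TPM were computed over all 57820 genes with pandas 2.3.3. Symbols were matched for 51996 identifiers (89.9%), and gene types came from GENCODE release 29. Of 132 entries in 7 gene lists 130 were measured. Counting intervals are exact 95% Poisson or conditional binomial intervals (SciPy 1.17.1), and a count of 0 was taken to allow 3 reads in each library; both cover counting error only. The interval code was tested on simulated data. TMM (edgeR 4.0.16) and DESeq2 1.42.0 size factors served as other scalings. The chi-square statistic between the libraries was 11.7 per gene, so they were kept as 2 replicates. With 1 group, no test between conditions could be made.

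The members and lists were chosen with earlier results of these data known. Named genes were the members, the highest 3 detected genes of each list, the undetected ones, and the receptors next to each member; other listed genes named were chosen after their values were seen. Values of the remaining listed genes and the immune marker count are not reported here. Alternatives were other units, scalings, lengths and detection levels, and leaving out each replicate. Promoter sequences are from RefSeq on GRCh38.p14 and were matched by symbol for all 3 members; coordinates of the counted genes are hg19.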

Additional observations from a re-analysis of the deposited data

How the results depend on the processing

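No paired analysis was possible because there was 1 group. Of 114 recomputed values 86 were counted as kept, by a rule that differed between results. Ratios had to keep their direction and call. Levels, median levels and ranks had to move by no more than the SD of the 2 replicates. Leaving out a replicate cannot move a member's mean level past that SD, so those values were kept by construction. Counts of detected genes only had to stay within a set fold range, so the change from 31 to 23 receptors at 5 CPM was counted as kept. The 3 ratios between members kept their direction and call in TPM, in CPM, with each replicate left out and with the length of the longest GENCODE release 29 transcript, a length chosen after seeing the data. PGR kept rank 1 throughout. Without division by length, PGR, NR3C1 and NR3C2 stood at 2093, 27.9 and 7.10 CPM; over nuclear protein-coding genes alone they stood at 721, 16.0 and 5.66 TPM. The interval of the replicate ratio of PGR included equality with TMM scaling (log2 0.011). At 5 CPM, 6 of 14 progestin, 5 of 10 mineralocorticoid and 3 of 17 metabolism genes were detected. The share of all protein-coding genes at 5 CPM was not computed, so these falls have no background. Median log2 levels in CPM and in TPM over nuclear protein-coding genes were 2.62 and 2.36 for receptors, 7.14 and 8.04 for chaperones, 1.81 and 2.39 for progestin, 3.07 and 4 for glucocorticoid, 3.32 and 3.40 for mineralocorticoid, -2.31 and -1.95 for metabolism, and 4.43 and 4.98 for non-nuclear receptor genes. With a single replicate, the mineralocorticoid median was 1.63 to 1.63, the metabolism median -2.80 to -2.79 and the rank of NR3C1 17 to 18. These shifts follow by construction from the unit, the genes in the sum, the scaling or the detection level; for single libraries the cause was not tested. Genes with few reads have wide counting intervals.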

Other observations

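PGR was not the only hormone receptor gene among the protein-coding genes with most reads. Ranked by mean CPM, the first place went to PRLR, the prolactin receptor gene, with 5598 CPM in replicate 1 and 5112 in replicate 2, and PGR took place 10 with 2116 and 2070.3 CPM. TRPS1, a GATA-type repressor of luminal cells, took place 5 with 3122 and 2706 CPM. PRLR has 13208 and TRPS1 11072 exon bases, long like the 15305 of PGR, and per exon length they stood at 602 and 392 TPM, against 203 TPM for PGR. PGR and EEF2, the translation elongation factor gene in place 11 with 2140 and 2034.7 CPM, differed in CPM by less than they differed between libraries. These genes were chosen after their values were seen.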
